A study of Mus musculus with 24 samples.

Results

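The basement membrane collagens and linkers were 8 genes of the 41388 in the count tables, chosen by symbol: Col4a1, Col4a2, Col15a1, Col18a1, Nid1, Nid2, Hspg2 and Sparc. Laminins were left out of the choice and are given further on for comparison. RNA was sequenced from whole livers of male C57BL/6J mice, as 20 libraries of single mice and 4 libraries of pooled RNA. The 4 groups, of 5 single mice each, were WT LFD, Adn-Lpin1-/- LFD, WT HFD and Adn-Lpin1-/- HFD. WT mice were littermates that carried floxed Lpin1 without Cre, and Adn-Lpin1-/- mice carried the same floxed alleles with Cre under the Adipoq promoter, which acts in adipocytes and not in the hepatocytes that make up most of the liver. The low-fat diet (LFD) held 10% and the high-fat diet (HFD) 60% of its kcal as fat. Livers were taken after a 4 h fast. Feeding time is 16 weeks in the sample labels and 5 weeks, from 8 weeks of age, in the methods, so the age of these mice is uncertain.

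A basement membrane is a thin sheet of matrix beneath epithelia and around vessels. Its frame is a network of collagen IV, in which 2 α1 chains (Col4a1) and 1 α2 chain (Col4a2) form the most common trimer, and a second network of laminins. Nidogens (Nid1, Nid2) and perlecan (Hspg2) link the networks, SPARC (Sparc) is a collagen-binding glycoprotein that acts while collagen IV is laid down, and collagens XV and XVIII (Col15a1, Col18a1) carry sugar chains and lie at the border with the surrounding matrix. The sinusoids of the normal liver lack a continuous basement membrane, vessels and bile ducts have one, and collagen IV and laminin along the sinusoids are a known feature of fibrotic liver. Hepatocytes are a known source of collagen XVIII, and stellate and endothelial cells of collagen IV.

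Col4a1 (ENSMUSG00000031502; chromosome 8, 11198423 to 11312826, minus strand, GRCm38) and Col4a2 (ENSMUSG00000031503; 11312805 to 11449287, plus strand) lie head to head, and their first exons overlap by 22 bases. That stretch is shown because the 2 chains were the members whose levels were most alike. It is read from the RefSeq promoter table (GRCm38.p6), chr8:11312801-11312830, on the strand of Col4a2, with the shared bases in capitals.
Col4a1 and Col4a2: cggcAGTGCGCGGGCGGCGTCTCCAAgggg

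The other members were Nid1 (ENSMUSG00000005397; chromosome 13, 13437602 to 13512275, plus strand), Nid2 (ENSMUSG00000021806; chromosome 14, 19751257 to 19811787, plus strand), Hspg2 (ENSMUSG00000028763; chromosome 4, 137468769 to 137570630, plus strand), Sparc (ENSMUSG00000018593; chromosome 11, 55394500 to 55420080, minus strand), Col15a1 (ENSMUSG00000028339; chromosome 4, 47208161 to 47313167, plus strand) and Col18a1 (ENSMUSG00000001435; chromosome 10, 77052178 to 77166548, minus strand). RefSeq promoter windows were found for 7 of the 8 genes, Col18a1 having 2 starts. In the 250 bases before each start, 3 motifs were searched on both strands. GGGCGG, the GC box, was in 4 of the 8 windows and in 32.7% of all 32851 windows. CCAAT was in 4 of 8 and in 33.8% of all, and TATAAA was in 0 of 8 and in 12.4% of all. The stretches below end where an annotated exon begins. They show the linkers Hspg2 and Nid1 beside the upstream start of Col18a1, with GGGCGG and CCAAT or their reverse complements in capitals.
Hspg2, chr4:137468553-137468768, plus strand: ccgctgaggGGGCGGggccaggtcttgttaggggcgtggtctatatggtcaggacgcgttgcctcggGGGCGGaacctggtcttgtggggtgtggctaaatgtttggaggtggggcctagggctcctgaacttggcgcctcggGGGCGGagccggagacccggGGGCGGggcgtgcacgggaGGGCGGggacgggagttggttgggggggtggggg
Nid1, chr13:13437352-13437550, plus strand: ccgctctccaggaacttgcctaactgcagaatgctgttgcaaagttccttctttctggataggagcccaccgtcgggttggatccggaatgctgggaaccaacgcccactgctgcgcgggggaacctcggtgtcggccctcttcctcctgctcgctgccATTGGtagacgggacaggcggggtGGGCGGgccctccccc
Col18a1, chr10:77166549-77166780, minus strand: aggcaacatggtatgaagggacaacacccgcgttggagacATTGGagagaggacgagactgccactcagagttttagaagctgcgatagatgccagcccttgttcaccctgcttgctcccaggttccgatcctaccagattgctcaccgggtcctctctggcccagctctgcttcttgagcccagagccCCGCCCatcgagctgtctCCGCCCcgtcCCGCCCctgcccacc
The Hspg2 stretch held 5 GC boxes, the Nid1 stretch 1 GC box and 1 CCAAT, and the Col18a1 stretch 3 GC boxes and 1 CCAAT. The window of the other Col18a1 start, which is not shown, held 0 of each motif. Which of these starts was used in the livers cannot be read from the counts. Such matches are letters in a window and were not tested for binding.

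Total counts were 36260187 to 45999456 per mouse (WT LFD), 51095146 to 61435897 (Adn-Lpin1-/- LFD), 54036184 to 62249701 (WT HFD) and 57550362 to 81072794 (Adn-Lpin1-/- HFD). On the LFD every Adn-Lpin1-/- library was thus deeper than every WT library. The members had between 113 and 110895 reads in a mouse, and levels are given as CPM (counts scaled to libraries of equal size) on library sizes scaled by edgeR's TMM method. All 8 members were above 1 CPM in at least 4 of the 20 mice and were tested among 13052 genes. Liver Lpin1 does not check the labels, since the deletion was in adipocytes. It was 358 ± 208 CPM (SD, n = 5) (WT LFD), 614 ± 339 (Adn-Lpin1-/- LFD), 274 ± 168 (WT HFD) and 331 ± 216 (Adn-Lpin1-/- HFD), and was not called by genotype (edgeR, adjusted p = 0.314 on the LFD and 0.734 on the HFD).

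Col18a1 was by far the most abundant member. Per kilobase of exon, its level was 232 ± 23.2 CPM (SD, n = 5) in WT LFD, and the next gene, Sparc, was at 11.3 ± 2.86. Col4a1 followed at 3.57 ± 1.13 and Col4a2 at 3.30 ± 1.02, and these 2 overlapped. The lowest levels per kilobase were those of Col15a1 (1.32 ± 0.59), Hspg2 (1.27 ± 0.22), Nid1 (1.19 ± 0.35) and Nid2 (1.18 ± 0.24), and each of them overlapped its neighbour in the order. In all 4 groups the order began Col18a1, Sparc, Col4a1, Col4a2, with no overlap between Col18a1 and Sparc or between Sparc and Col4a1. Below Col4a2 the order moved between groups, and Col15a1 was the lowest member in Adn-Lpin1-/- LFD and WT HFD. Of the summed level per kilobase of the 8 members, Col18a1 held 90.9% ± 2.01 (WT LFD), 89.7% ± 0.95 (WT HFD), 83.2% ± 4.48 (Adn-Lpin1-/- LFD) and 81.6% ± 4.70 (Adn-Lpin1-/- HFD). A sum over the 8 genes therefore mostly shows Col18a1.

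**Figure D1:**
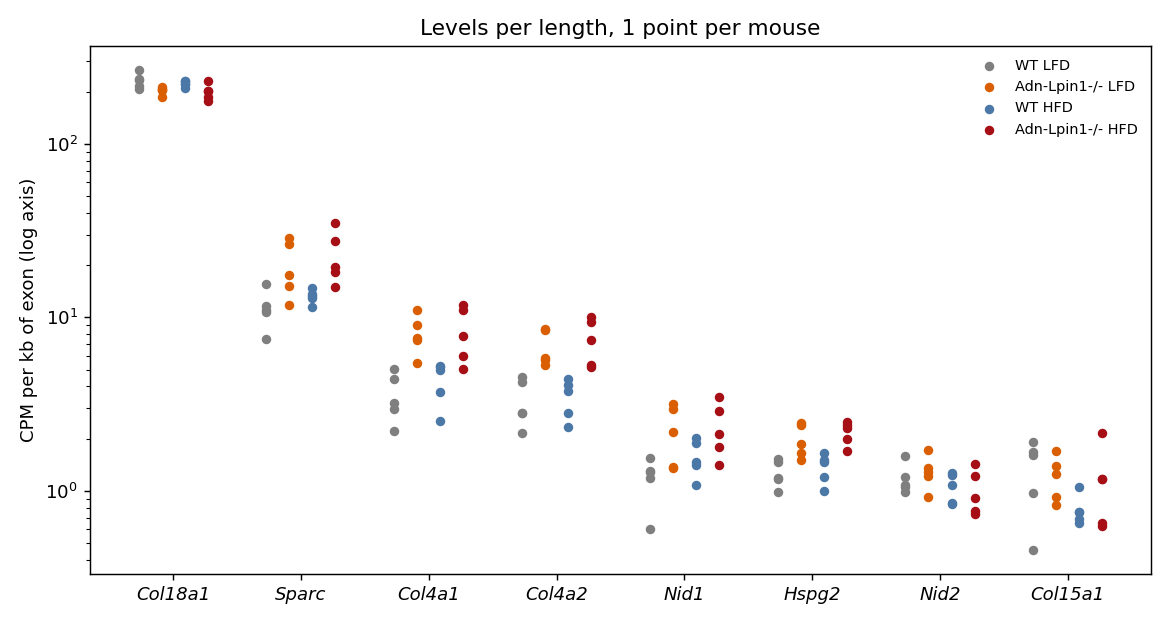
Level of each member per kilobase of exon (CPM per kb, log axis), with 1 point per mouse and colours for the 4 groups. Col18a1 lies above all other members in every mouse, and Sparc lies above Col4a1 and Col4a2 in every group.

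Both collagen IV chains were higher in Adn-Lpin1-/- livers on each diet, by 1.92-fold to 2.26-fold. On the LFD, Col4a1 was 20.3, 34.2, 15.1, 21.9 and 30.1 CPM in WT mice 1 to 5, and 37.4, 74.8, 51.6, 50.5 and 61.3 CPM in Adn-Lpin1-/- mice 1 to 5. On the HFD it was 34.0, 25.3, 35.6, 35.4 and 17.3 CPM in WT and 80.4, 75.3, 53.5, 34.3 and 40.8 CPM in Adn-Lpin1-/-. The genotypes did not overlap on the LFD, whereas on the HFD Adn-Lpin1-/- mouse 4 fell among the WT mice. Relative to WT, the log2 fold change of Col4a1 in Adn-Lpin1-/- livers was 1.18 with LFD feeding (standard error 0.26, adjusted p = 0.00551, from the quasi-likelihood test of edgeR, adjusted over 13052 genes by the Benjamini-Hochberg method). With HFD feeding it was 0.94 (standard error 0.26, adjusted p = 0.0165, edgeR). This HFD call was lost without Adn-Lpin1-/- HFD mouse 1 (edgeR, adjusted p = 0.0506) or mouse 2 (edgeR, adjusted p = 0.0525), where the log2 fold changes were 0.79 and 0.82.

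The partner chain showed the same with less overlap. On the LFD, Col4a2 was 18.6, 29.9, 14.2, 18.5 and 27.9 CPM in WT mice 1 to 5 and 37.3, 57.0, 38.8, 35.4 and 55.8 CPM in Adn-Lpin1-/-. HFD-fed mice had 24.9, 18.6, 29.0, 27.0 and 15.5 CPM in WT and 61.9, 66.4, 49.1, 35.0 and 34.2 CPM in Adn-Lpin1-/-. The genotypes did not overlap on either diet. For Col4a2 the LFD log2 fold change by genotype was 1.04 (standard error 0.23, edgeR adjusted p = 0.00600), and the HFD value was 1.10 (standard error 0.23, edgeR adjusted p = 0.00359). Both Col4a2 calls held under each of the 9 other settings and without each of the 20 mice, with an adjusted p of at most 0.0205. In the pooled libraries, which repeat the RNA of the same mice and are no further replicates, Col4a1 was 23.1 CPM in WT LFD and 53.5 CPM in Adn-Lpin1-/- LFD. Of the 4 minor collagen IV chains, which form the networks of kidney, eye and other sites, only Col4a5 passed the limit on low counts. It was not called, with LFD and HFD log2 fold changes of -0.28 and 0.10.

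**Figure D2:**
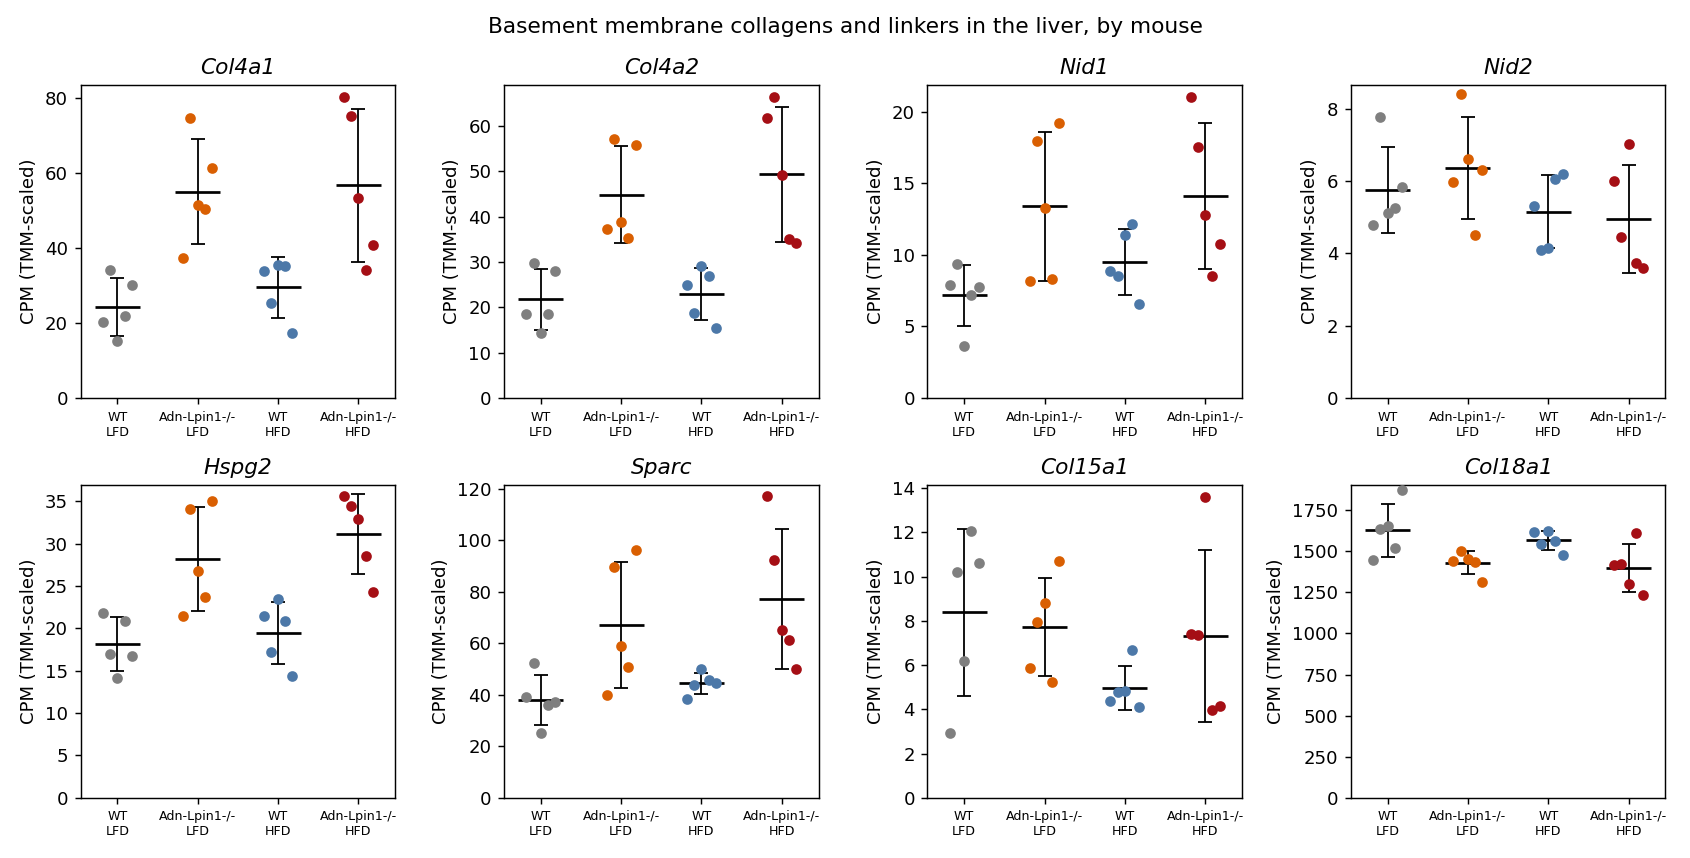
CPM of the 8 members in each mouse (points), with the group mean (horizontal line) and SD (bars, n = 5), each panel on its own axis from 0. Col4a2 of the Adn-Lpin1-/- mice lies above that of the WT mice on both diets, and Col18a1 lies between 1235 and 1873 CPM in all 4 groups.

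Perlecan, the large heparan sulfate proteoglycan encoded by Hspg2, was 1.56-fold higher in Adn-Lpin1-/- livers on the LFD and 1.60-fold higher on the HFD. On the LFD, Hspg2 was 21.8, 16.98, 14.2, 20.9 and 16.7 CPM in WT mice 1 to 5 and 21.4, 34.1, 26.8, 23.7 and 35.0 CPM in Adn-Lpin1-/-. HFD-fed mice had 21.4, 17.2, 23.5, 20.9 and 14.3 CPM in WT and 35.7, 34.5, 33.0, 28.6 and 24.3 CPM in Adn-Lpin1-/-. Adn-Lpin1-/- LFD mouse 1 lay below the highest WT mouse, and on the HFD the genotypes did not overlap. For Hspg2 the LFD log2 fold change by genotype was 0.64 (standard error 0.16, edgeR adjusted p = 0.0110), and the HFD value was 0.68 (standard error 0.16, edgeR adjusted p = 0.00679). Both calls held under all other settings and without each of the mice.

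Sparc was 1.77-fold higher in Adn-Lpin1-/- livers on the LFD and 1.74-fold higher with the HFD. On the LFD, Sparc was 39.0, 52.3, 25.3, 36.1 and 37.0 CPM in WT mice 1 to 5 and 39.9, 89.4, 59.0, 50.8 and 96.4 CPM in Adn-Lpin1-/-. With the HFD its level was 38.4, 43.7, 49.9, 45.7 and 44.4 CPM in WT and 117, 92.4, 65.3, 61.1 and 50.1 CPM in Adn-Lpin1-/-. On the LFD, Adn-Lpin1-/- mice 1 and 4 fell within the WT range, and on the HFD the lowest Adn-Lpin1-/- mouse was just above the highest WT mouse. For Sparc the LFD log2 fold change by genotype was 0.82 (standard error 0.24, edgeR adjusted p = 0.0270), and the HFD value was 0.80 (standard error 0.24, edgeR adjusted p = 0.0260). The LFD call was lost without WT LFD mouse 3 or 4 or Adn-Lpin1-/- LFD mouse 2 or 5 (edgeR, adjusted p between 0.0562 and 0.0876). The HFD call was lost without WT HFD mouse 1, 2 or 5 or Adn-Lpin1-/- HFD mouse 1 or 2 (edgeR, adjusted p between 0.0505 and 0.0869). The direction was the same in all of these fits.

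Of the 2 nidogens, Nid1 was called higher on the LFD and Nid2 was not called. On the LFD, Nid1 was 7.90, 9.38, 3.66, 7.17 and 7.74 CPM in WT mice 1 to 5 and 8.18, 17.9, 13.3, 8.29 and 19.2 CPM in Adn-Lpin1-/-. With the HFD its level was 8.86, 8.50, 11.4, 12.2 and 6.54 CPM in WT and 21, 17.5, 12.8, 8.51 and 10.8 CPM in Adn-Lpin1-/-. On each diet 3 Adn-Lpin1-/- mice were above all WT mice and 2 were among them. The genotype effect with LFD feeding was 0.90 on the log2 scale (standard error 0.29, adjusted p = 0.0404, edgeR), against an HFD value of 0.57 (standard error 0.28, adjusted p = 0.160, edgeR), so that Nid1 was called on the LFD alone. The difference between the diets was -0.33 (95% interval -1.17 to 0.52) and was not called. The LFD call was close to the threshold. It was lost under voom with quality weights (adjusted p = 0.0604), in an edgeR fit of the 2 groups alone (adjusted p = 0.0566), with the replicate block (edgeR, adjusted p = 0.0623) and with the GC trend removed (edgeR, adjusted p = 0.0507). It was also lost without WT LFD mouse 1, 3, 4 or 5 or Adn-Lpin1-/- LFD mouse 2, 3 or 5 (edgeR, adjusted p up to 0.117). On the HFD, Nid1 passed the threshold under voom with the pools as further libraries (adjusted p = 0.0356).

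Nid2 lay between 4.79 and 7.76 CPM (WT LFD), 4.50 and 8.41 (Adn-Lpin1-/- LFD), 4.10 and 6.20 (WT HFD), and 3.60 and 7.01 (Adn-Lpin1-/- HFD). All 4 ranges overlapped. By genotype, Nid2 had a log2 fold change of 0.14 on the LFD (95% interval -0.28 to 0.56, adjusted p = 0.681, edgeR) and -0.06 on the HFD (95% interval -0.48 to 0.37, adjusted p = 0.871, edgeR).

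Neither multiplexin, collagen XV or XVIII, was called by genotype. On the LFD, Col18a1 was 1445, 1636, 1656, 1521 and 1873 CPM in WT mice 1 to 5 and 1443, 1503, 1451, 1437 and 1314 CPM in Adn-Lpin1-/-. HFD-fed mice had 1619, 1547, 1624, 1561 and 1480 CPM in WT and 1419, 1422, 1300, 1613 and 1235 CPM in Adn-Lpin1-/-. Of the 5 Adn-Lpin1-/- mice, 3 on the LFD and 4 with HFD feeding lay below all WT mice, and the others lay within the WT range. The genotype effect with LFD feeding was -0.19 on the log2 scale (standard error 0.08, 95% interval -0.35 to -0.02, adjusted p = 0.114, edgeR), against an HFD value of -0.16 (standard error 0.08, adjusted p = 0.144, edgeR). Col18a1 passed the threshold, as lower in Adn-Lpin1-/-, with the GC trend removed (edgeR, adjusted p = 0.0266 for the LFD and 0.0166 for the HFD) and under voom with the pools (adjusted p = 0.00961 and 0.00437). On the HFD it also passed without Adn-Lpin1-/- HFD mouse 4 (edgeR, adjusted p = 0.0356). These counts are summed over the gene, so a change cannot be assigned to either of its 2 transcript starts.

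Col15a1 was spread widely within groups. It lay between 2.91 and 12.1 CPM (WT LFD), 5.23 and 10.7 (Adn-Lpin1-/- LFD), 4.13 and 6.66 (WT HFD), and 3.97 and 13.6 (Adn-Lpin1-/- HFD). By genotype, Col15a1 had a log2 fold change of -0.12 on the LFD (95% interval -0.84 to 0.59, adjusted p = 0.850, edgeR) and 0.57 on the HFD (95% interval -0.15 to 1.28, adjusted p = 0.255, edgeR). The HFD interval holds a rise as large as that of Sparc (0.80), and the LFD interval holds a fall of that size but not a rise.

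In all, on the LFD 5 of the 8 members were called higher in the Adn-Lpin1-/- group (Col4a1, Col4a2, Nid1, Hspg2 and Sparc), where 6.27% of all 13052 genes were called higher and 14.4% were called in either direction. On the HFD, 4 of the 8 were called higher (the same genes without Nid1), where 9.87% of all genes were called higher and 18.6% in either direction. No member was called lower. The genotypes lay apart, with Adn-Lpin1-/- above WT, in 2 of the 8 members on the LFD (Col4a1 and Col4a2), against 3.89% of all genes. The same held in 3 of the 8 on the HFD (Col4a2, Hspg2 and Sparc), against 5.78% of all genes. The members had a median log2 fold change of 0.73 (LFD) and 0.62 (HFD), where the medians of all genes tested were 0.01 and 0.00. The diets have separate mice, but both genotype comparisons come from the same fit of all 20 libraries and share its estimate of the spread.

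**Figure D3:**
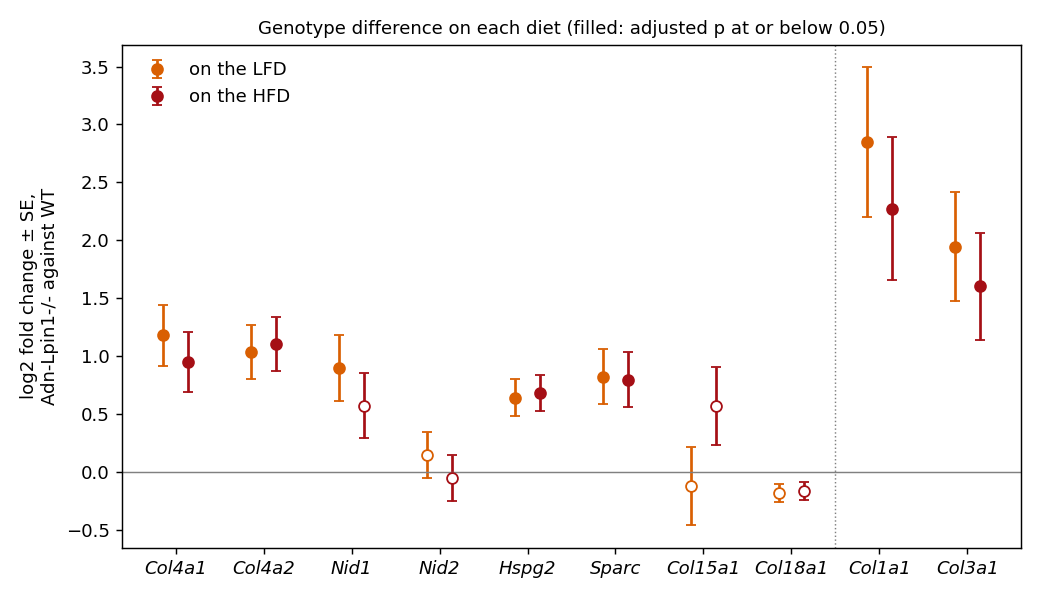
Log2 fold change by genotype (Adn-Lpin1-/- over WT) on each diet, with its standard error (bars). Filled points have an adjusted p at or below 0.05 in edgeR's test. The 8 members stand left of the dotted line and 2 fibrillar collagens right of it, and Col4a1, Col4a2, Hspg2 and Sparc are filled on both diets.

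Diet alone was not seen to move the members. In WT mice, 0 of the 8 members were called between the HFD and the LFD by edgeR, where 1.10% of all genes were called, and 1 member had an unadjusted p under 0.05. That was Col15a1, which averaged 4.96 ± 1.00 CPM (SD, n = 5) in WT HFD and 8.38 ± 3.76 in WT LFD, with a log2 fold change of -0.76 (standard error 0.34, adjusted p = 0.282, edgeR). In Adn-Lpin1-/- mice, 0 of the 8 were called by edgeR, where 2.46% of all genes were called, and 0 had an unadjusted p under 0.05. For the 5 members called by genotype, the log2 fold changes by diet were between 0.07 (Col4a2) and 0.40 (Nid1) in WT, and between 0.04 (Col4a1) and 0.20 (Sparc) in Adn-Lpin1-/-. The interaction of genotype and diet, that is, the HFD minus the LFD genotype effect, was called by edgeR for 0 members and for 0% of all genes, with 938 genes and 0 members at an unadjusted p under 0.05. For this term DESeq2 called 30 genes, voom with quality weights 0, and the same voom with the pools as further libraries 190, in each case with 0 members. For Col4a2 the difference was 0.06 with a 95% interval of -0.63 to 0.75 and for Hspg2 0.04 with an interval of -0.43 to 0.51. These intervals leave room for a sizeable difference between the diets.

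Ratios of 2 genes within a mouse do not depend on how libraries are scaled, and 6 ratios were compared between genotypes on each diet and between diets in each genotype. Of these 24 two-sided exact permutation tests, 0 passed an adjusted p of 0.05, and 4 had an unadjusted exact p under 0.05. The smallest p that 5 mice against 5 allow is 0.00794, which a single test cannot carry past adjustment over 24. Under limma, 0 of 24 passed as well. The ratio of Col4a1 to Col4a2 per kilobase had medians of 1.06 (WT LFD), 1.27 (WT HFD), 1.27 (Adn-Lpin1-/- LFD) and 1.10 (Adn-Lpin1-/- HFD) and a range from 0.95 to 1.39 over all mice. Between the diets in WT its log2 difference, HFD minus LFD, was 0.20 (exact permutation p = 0.0238, adjusted p = 0.143). The ratio was below the 2 to 1 proportion of the chains in the common trimer in every mouse, on a scale of reads per exon length.

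The ratio of Nid1 to Nid2 per kilobase had medians of 1.07 (WT LFD), 1.63 (WT HFD), 1.62 (Adn-Lpin1-/- LFD) and 2.41 (Adn-Lpin1-/- HFD). Between genotypes its log2 difference was 0.74 on the LFD (exact permutation p = 0.0159, adjusted p = 0.143) and 0.61 on the HFD (exact permutation p = 0.0873, adjusted p = 0.310). The ratio of Sparc to Col4a1 was lower in Adn-Lpin1-/- on the LFD by a log2 difference of -0.42 (exact permutation p = 0.0238, adjusted p = 0.143), and on the HFD the difference was -0.19 (exact permutation p = 0.492).

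Of the fibrillar collagens, which form the fibres of scar tissue, Col1a1 and Col3a1 had larger fitted changes than Col4a1 and Col4a2. Col1a1 had a log2 fold change by genotype of 2.85 on the LFD (standard error 0.64, adjusted p = 0.00620, edgeR), and its HFD value was 2.27 (standard error 0.62, adjusted p = 0.0160, edgeR). Col3a1 had log2 fold changes of 1.94 (adjusted p = 0.00917, edgeR) and 1.60 (adjusted p = 0.0216, edgeR). The ratio of Col1a1 to Col4a1 per kilobase was between 0.0941 and 0.269 in WT LFD and between 0.312 and 1.08 in Adn-Lpin1-/- LFD, without overlap. Its log2 difference on the LFD was 1.53 (exact permutation p = 0.00794, the smallest possible, adjusted p = 0.143). On the HFD it was 0.88 (exact permutation p = 0.151, adjusted p = 0.329), and the groups overlapped. For Col3a1 to Col4a1 the log2 differences were 0.62 on the LFD (exact permutation p = 0.103) and 0.43 on the HFD (exact permutation p = 0.206). A larger rise of Col1a1 or Col3a1 than of Col4a1 was therefore not shown past adjustment. Col1a1 was also more variable between mice, with a coefficient of variation of 79.2% in Adn-Lpin1-/- LFD, against 25.2% for Col4a1.

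**Figure D4:**
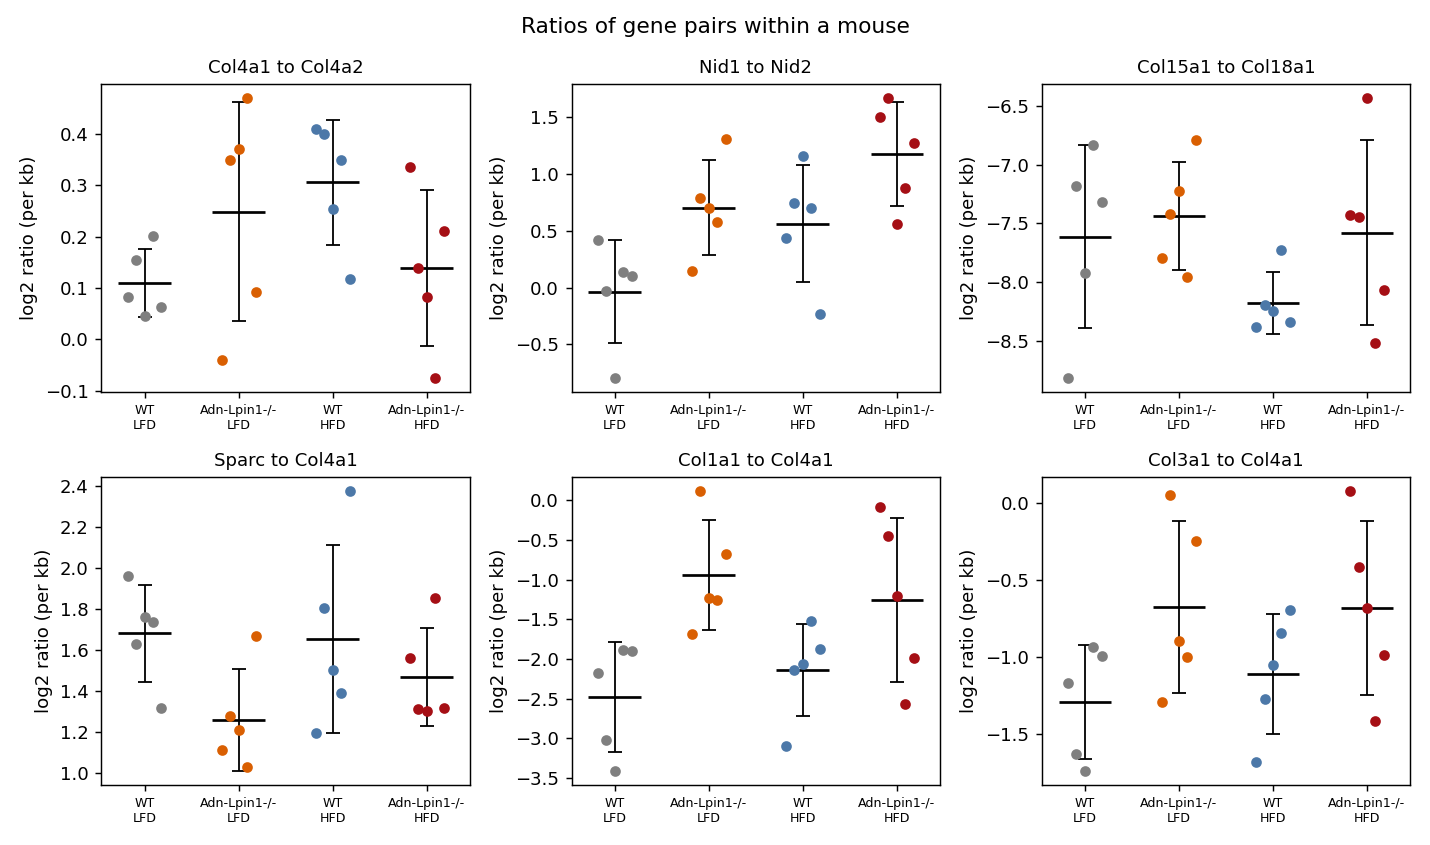
Log2 ratio per kilobase of 6 gene pairs in each mouse (points), with the group mean (line) and SD (bars, n = 5). The log2 ratio of Col1a1 to Col4a1 lies at -1.68 or above in Adn-Lpin1-/- LFD and at -1.89 or below in WT LFD.

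Within groups the mice differed along the same lines. After the group means were subtracted, Pearson's r of log2 CPM over the 20 mice was 0.95 between Col4a1 and Col4a2, 0.88 between Col4a1 and Nid1 and between Nid1 and Sparc, and 0.80 between Nid1 and Hspg2. Among the 5 members called on the LFD, r was 0.688 or more in every pair. Nid2 was less like its relative Nid1 (0.46) than like Col15a1 (0.63), and Col18a1 had r between -0.075 and 0.25 with the other members. In Adn-Lpin1-/- HFD, mouse 1 was the highest for 4 members (Col4a1, Nid1, Hspg2 and Sparc), and mouse 5 was the lowest for 5. In WT LFD, mouse 2 was the highest and mouse 3 the lowest for 5 members each. These r values are a description, since the genes were measured in the same libraries and share their depth.

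Over all genes tested, the genes most like Col4a1 were Col4a2 (r = 0.95), Sntb1 (0.93) and Fdps (0.90), and those most like Col4a2 were Col4a1, Ankrd50 (0.91) and Sntb1 (0.90). Nid1 was most like Pam (0.96), Fbn1 (0.94), which encodes fibrillin 1 of elastic microfibrils, and Ltbp4 (0.93), which encodes a latent TGF-β binding protein. Sparc was most like Col14a1 (0.92), Tanc1 (0.90) and Cygb (0.88), cytoglobin, a marker of stellate cells. Hspg2 was most like Prkch (0.89), Timp2 (0.87), an inhibitor of metalloproteinases, and Map4k4 (0.87). Nid2 was most like Acly (0.84) and Fasn (0.83), enzymes of fatty acid synthesis, and Celsr1 (0.82). Col15a1 was most like Dynlt3 (0.90), Gm7329 (0.89) and Acsl5 (0.85), and Col18a1 most like Furin (0.80), Slc38a7 (0.79) and Pgpep1 (0.78).

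**Figure D5:**
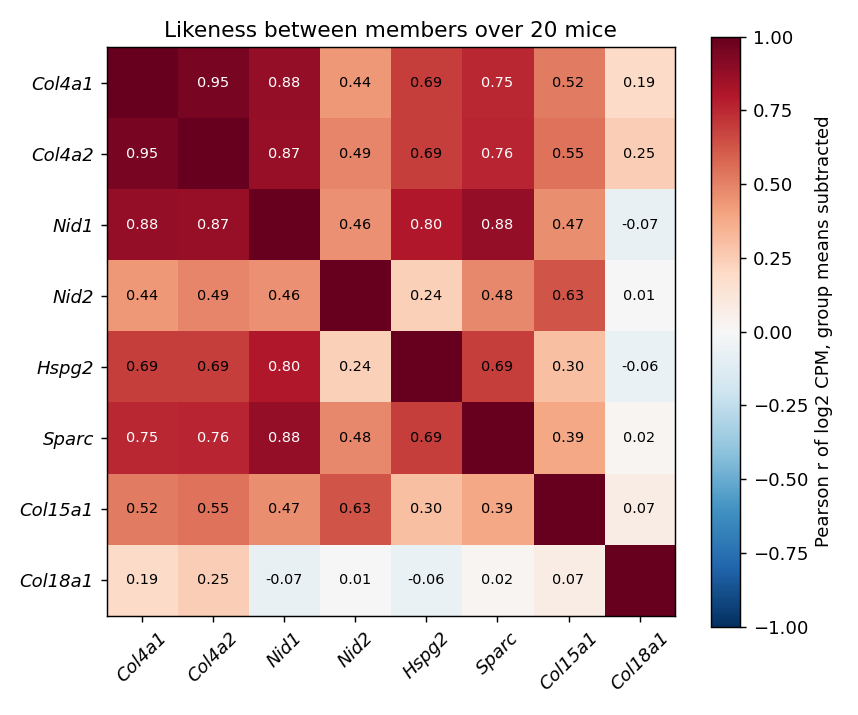
Pearson's r of log2 CPM between members over 20 mice after subtraction of group means, with r written in each cell. Col4a1, Col4a2, Nid1, Hspg2 and Sparc form a block with r of 0.688 or more, and the row of Col18a1 stays between -0.075 and 0.25.

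For the gene lists from here on, the shares over all genes tested serve as the background. These were 6.27% called higher and 14.4% called in either direction on the LFD, and 9.87% and 18.6% on the HFD. Of the 11 laminin genes, whose trimers form the other network, 10 were tested. On the LFD 5 rose (Lama2, Lama5, Lamb1, Lamb2 and Lamc1), 1 fell and 4 were not called, with a median of 0.66 (log2 fold change). On the HFD 4 rose (Lama1, Lama5, Lamb2 and Lamb3) and 6 were not called, with a median of 0.65. Lama5, the α chain of adult vessel and duct laminins, went from 4.10 ± 0.57 to 6.77 ± 0.93 CPM on the LFD (log2 fold change 0.72, adjusted p = 0.00640, edgeR) and from 3.30 ± 0.83 to 5.595 ± 0.97 on the HFD (0.76, adjusted p = 0.00399, edgeR). Lama3, an epithelial α chain, fell on the LFD from 7.04 ± 1.65 to 4.16 ± 0.88 CPM (log2 fold change -0.76, adjusted p = 0.0109, edgeR). Of 17 other basement membrane components, 12 were tested and 5 rose on each diet with none lower (medians 0.65 and 0.49). The largest change there was that of Fbln2, fibulin 2, from 1.04 ± 0.28 to 4.09 ± 1.74 CPM on the LFD (log2 fold change 1.97, adjusted p = 0.00157, edgeR) and from 1.59 ± 0.63 to 4.42 ± 2.00 on the HFD (1.48, adjusted p = 0.00712, edgeR). Ntn4, netrin 4, which binds laminin, and Tinagl1 also rose on both diets.

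Of the 17 genes that fold and modify collagen, 13 were tested. On the LFD 2 rose, and on the HFD 2 rose and 1 fell, with medians of 0.15 and 0.29. Serpinh1, the collagen chaperone HSP47, rose from 9.82 ± 2.10 to 17.7 ± 7.61 CPM on the LFD (log2 fold change 0.84, adjusted p = 0.0174, edgeR) and from 11.5 ± 1.97 to 18.1 ± 4.15 on the HFD (0.66, adjusted p = 0.0445, edgeR). Of 14 receptors for basement membranes, 13 were tested, 1 rose and 2 fell on the LFD and 2 fell on the HFD (medians 0.18 and 0.09). The HFD count of receptors was near the share of all genes called in either direction. The counts of folding genes were near that share on both diets. Itga3, a laminin-binding integrin chain, rose on the LFD (log2 fold change 0.57, adjusted p = 0.00375, edgeR), while Itga1, a chain of a collagen IV receptor, and the syndecan Sdc2 fell on both diets. For Itga1 it was -0.45 on the LFD (adjusted p = 0.00394, edgeR) and -0.29 on the HFD (adjusted p = 0.0391, edgeR). Of 13 proteases and inhibitors, 11 were tested. On the LFD 4 rose and 1 fell, and on the HFD 1 rose and 1 fell (medians -0.03 and 0.01). The HFD count of proteases and inhibitors was near the share of all genes. Timp3, an inhibitor of metalloproteinases that is held in matrix, rose on both diets, from 3.85 ± 0.90 to 9.11 ± 4.24 CPM on the LFD (log2 fold change 1.24, adjusted p = 0.00335, edgeR) and from 5.40 ± 0.99 to 9.44 ± 2.26 on the HFD (0.81, adjusted p = 0.0308, edgeR). Of the 6 fibrillar collagens, 5 rose on each diet, with medians of 1.42 and 1.28.

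Some markers of endothelium rose beside the members, as did some markers of activated stellate cells and of portal fibroblasts. Few of the other stellate cell markers were called, though most had a positive log2 fold change. All 8 markers of all endothelium and all 7 sinusoidal endothelial markers had a positive log2 fold change on both diets. In bulk RNA, a change in the number of cells of a type and a change in RNA per cell cannot be told apart. Of 8 markers of all endothelium, 5 rose on each diet (medians 0.62 and 0.60), and their summed level was 76 to 129 CPM (WT LFD), 121 to 215 (Adn-Lpin1-/- LFD), 97.6 to 143 (WT HFD) and 150 to 180 (Adn-Lpin1-/- HFD). Pecam1 had a log2 fold change of 0.84 (LFD) and 0.65 (HFD). Of 7 sinusoidal endothelial markers, 2 rose on the LFD and 4 rose on the HFD (medians 0.49 and 0.63), with sums of 114 to 180 CPM (WT LFD), 161 to 270 (Adn-Lpin1-/- LFD), 126 to 179 (WT HFD) and 209 to 228 (Adn-Lpin1-/- HFD). Of 6 markers of capillary and large-vessel endothelium, 4 were tested and Vwf rose on both diets (log2 fold changes 1.17 and 1.06), and Aplnr was at 0 to 16 reads per mouse. The sum of these 6 was 33.4 to 57.1 CPM (WT LFD), 58.8 to 90.2 (Adn-Lpin1-/- LFD), 46.0 to 62.3 (WT HFD) and 67.8 to 96.6 (Adn-Lpin1-/- HFD). The part of endothelium in the results for the members was not tested.

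Of 10 markers of stellate cells, 1 rose on the LFD, and on the HFD 1 rose and 1 fell (medians 0.26 and 0.17). Their sum was 157 to 309 CPM (WT LFD), 250 to 375 (Adn-Lpin1-/- LFD), 279 to 357 (WT HFD) and 278 to 390 (Adn-Lpin1-/- HFD). The marker that rose was Pdgfrb (log2 fold changes 0.94 and 0.66). The counts of these stellate markers called in either direction were near the shares of all genes on both diets. Of 6 markers of activated stellate cells and myofibroblasts, which include Col1a1, 4 were tested and 3 rose on each diet, with sums of 10.6 to 24.02 CPM (WT LFD), 31.9 to 106 (Adn-Lpin1-/- LFD), 17.8 to 29.9 (WT HFD) and 19.4 to 105 (Adn-Lpin1-/- HFD). Of 6 portal fibroblast markers, which include Fbln2, 4 were tested and 3 rose on each diet, with sums of 3.92 to 5.19, 7.48 to 17.8, 4.14 to 6.71 and 6.16 to 15.6 CPM in the same order of groups. Of 8 Kupffer cell and macrophage markers, edgeR called 0 on the LFD (1 had an unadjusted p under 0.05 and DESeq2 called 1) and 6 rose on the HFD (medians 0.27 and 0.73), with sums of 137 to 259, 173 to 340, 167 to 214 and 212 to 456 CPM. Their part in the results was not tested.

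Markers of 5 other types were also read. Of 9 hepatocyte markers, 1 fell on the LFD and 5 fell on the HFD (medians -0.27 and -0.42). Their sum was 113403 to 118389 CPM (WT LFD), 79801 to 108255 (Adn-Lpin1-/- LFD), 101338 to 131506 (WT HFD) and 83845 to 112590 (Adn-Lpin1-/- HFD). Alb made up most of this sum, with a mean of 78714 of 115883 CPM in WT LFD. The group means of this sum and of Col18a1 were lower in Adn-Lpin1-/- than in WT on both diets, and the part of the one in the other was not tested. Of 6 mesothelial and 6 cholangiocyte markers, 4 and 5 were tested and edgeR called 0 on either diet. On the LFD, 3 of each had an unadjusted p under 0.05, the medians were 1.61 and 0.75, and DESeq2 called 2 mesothelial and 1 cholangiocyte marker. On the HFD 0 had an unadjusted p under 0.05, DESeq2 called 0, and the medians were -0.23 and 0.34. The mesothelial sum was 1.73 to 3.57, 2.61 to 17.97, 4.47 to 7.72 and 2.85 to 6.40 CPM, and the cholangiocyte sum was 22.7 to 50.7, 34.1 to 82.8, 14.3 to 39.2 and 26.2 to 58.0 CPM, in the same order of groups. In Adn-Lpin1-/- LFD the median mesothelial sum was 3.635 CPM, far below the highest mouse at 17.97. There Msln, Upk3b and Wt1 had medians of 0.478, 0.510 and 0.574 CPM and maxima of 3.43, 4.47 and 2.47. Spp1 made up most of the cholangiocyte sum, with a mean of 28.5 of 36.05 CPM in WT LFD and 48.1 of 58.1 in Adn-Lpin1-/- LFD. Of 6 lymphocyte markers 2 were tested and edgeR and DESeq2 called 0, with 0 at an unadjusted p under 0.05 and sums of 2.17 to 5.98 CPM over all mice. Of 5 adipocyte markers only Cfd was tested and it rose on both diets, from 0.83 ± 1.08 to 11.3 ± 14.1 CPM on the LFD and from 5.83 ± 6.36 to 81.8 ± 81.2 on the HFD. The LFD call of Cfd (edgeR, adjusted p = 0.038) was lost under voom with quality weights, and the HFD call was kept. Adipocyte sums were 0.261 to 4.63 CPM (WT LFD), 1.80 to 36.1 (Adn-Lpin1-/- LFD), 1.42 to 16.6 (WT HFD) and 3.96 to 184 (Adn-Lpin1-/- HFD). The defining adipocyte markers Plin1, Lep and Retn had at most 6 reads in any mouse, and Adipoq had at most 168, in a WT LFD mouse, and at most 8 in any Adn-Lpin1-/- mouse.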

How the data were processed

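The authors aligned poly-A selected liver RNA reads to GRCm38 with STAR 2.5.1a and counted uniquely aligned, unambiguous reads on Ensembl release 76 genes with featureCounts 1.4.6-p5. For 41388 genes in each of 24 libraries, raw counts were deposited beside CPM and RPKM. Every value here was computed from the deposited counts, and the deposited CPM and RPKM were not otherwise used. Whether the counting used strand is not given in the sources used here, so reads from the 22 bases shared by Col4a1 and Col4a2 on opposite strands cannot be told apart.

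Symbols matched 40254 identifiers (97.3%). After removal of 355 rRNA genes, 13052 genes that exceeded 1 CPM in 4 or more single-mouse libraries (of 20) were fitted with edgeR 4.0.16 in R 4.3.3: TMM scaling, 4 group means, the quasi-likelihood test, Benjamini-Hochberg adjustment and a threshold of 0.05. The 95% intervals use the standard error and 16 residual degrees of freedom. Ratios were tested by two-sided exact permutation of mice, with adjustment over 24 tests. Pools were left out of the tests. Scripts were tested on simulated data.

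Other settings were DESeq2 1.42.0 (size factors and Wald test), voom with quality weights of limma 3.58.1 with and without the pools, no filter or edgeR's default filter on low counts, only the 2 groups compared, a replicate block, removal of each library's GC trend, each mouse left out in turn, and for ratios limma, a replicate block in limma and no division by length. Tables, permutation tests and figures were made in Python 3.11.15 (pandas 2.3.3, numpy 2.4.6, matplotlib 3.10.9, scipy 1.17.1).

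The members and gene lists were chosen with earlier results of these data known. Genes named are the members, Lpin1, Col1a1, Col3a1, up to 3 called genes of each list per genotype comparison with the largest change and a mean of at least 1 CPM, and the 3 genes most like each member; other genes were named after their values were seen. Replicates are single mice.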

Additional observations from a re-analysis of the deposited data

Results flagged for a closer look

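One value stood apart from its group. In WT HFD, Col15a1 was 4.38, 4.79, 4.82, 6.66 and 4.13 CPM in mice 1 to 5, and the gap between mouse 4 and the nearest other mouse took up 0.724 of the group's range, above Dixon's 95% critical value of 0.71 for 5 samples. The 8 members and 6 ratios in 4 groups make 56 such checks, of which chance is expected to pass about 1 in 20. Without that mouse the log2 fold change of Col15a1 by genotype on the HFD was 0.69 (edgeR, adjusted p = 0.200), and it was not called.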

How the results depend on the processing

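Other settings gave 4 to 6 called members by genotype on the LFD (5 as reported) and 4 to 6 on the HFD (4 as reported), and the replicate block gave 4 on each. These counts take both directions. The 6 on each diet came from voom with the pools, which repeat the same mice, and included Col18a1 as lower. With the GC trend removed the count was 5 on each diet, again with Col18a1 as lower, and Nid1 was lost on the LFD. The 5 on the HFD without Adn-Lpin1-/- HFD mouse 4 also included Col18a1 as lower. Leaving out each mouse gave 3 to 5 on the LFD, with 3 without WT LFD mouse 3 or 4 or Adn-Lpin1-/- LFD mouse 2 or 5, and 2 to 5 on the HFD, with 2 without Adn-Lpin1-/- HFD mouse 1 or 2. Members called by diet or by the difference between the diets, and ratio tests passed, stayed at 0 under every setting run, the replicate block included. For ratio comparisons that lost a mouse, the smallest possible exact p was larger still, so their zeros say little on stability. Mice with the same replicate number did not deviate together (correlations from -0.415 to 0.281), so the numbers were not taken to pair them. The 40 log2 fold changes of members gave 1152 values over the other settings: 1073 kept direction and side of the threshold, 22 lost and 6 gained a call, and 51 changed sign, 0 of these for a called value.

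Sign changes by setting were 0.028 for Col15a1 by genotype on the LFD under voom with quality weights, and for the difference between the diets -0.081 for Col4a2 under the same voom, -0.042, -0.032 and -0.021 for Col18a1 under voom, voom with the pools and GC trend removed, and -0.087 and -0.003 for Hspg2 under voom with the pools and GC trend removed. With each mouse left out, the genotype values ranged from -0.343 to 0.042 for Col15a1 on the LFD and from -0.215 to 0.042 for Nid2 on the HFD. By diet in WT they ranged from -0.048 to 0.216 for Col4a2 and from -0.092 to 0.003 for Col18a1. By diet in Adn-Lpin1-/- they ranged from -0.113 to 0.179 for Col4a1, -0.428 to 0.075 for Col15a1, -0.097 to 0.009 for Col18a1 and -0.111 to 0.242 for Nid1. The difference between the diets ranged from -0.087 to 0.177 for Col4a2, -0.044 to 0.064 for Col18a1, -0.062 to 0.131 for Hspg2 and -0.224 to 0.142 for Sparc, and the log2 ratio of Col15a1 to Col18a1 by genotype on the LFD from -0.123 to 0.372. The causes were not tested. With 113 reads at the lowest, counting error is smaller than the spread between mice, and 5 mice per group set the width of the intervals.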
